A study of Mus musculus with 10 samples.

Results

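Oncofetal genes are transcribed in fetal liver, fall silent in the weeks after birth, and can be switched on again in regenerating or malignant adult liver. Described here are 10 such transcripts and repressors in regenerating mouse liver: the fetal genes Afp, H19, Igf2, Gpc3, Dlk1, Lpl, Akr1b8 and Cd24a, and the genes of the zinc finger repressors Zhx2 and Zbtb20. They were chosen by symbol, with earlier results of these data known, from the deposited table of 23847 gene loci. All 10 were found, each at 1 locus. In mouse liver, Zbtb20 is known as a repressor of Afp after birth, and Zhx2 was identified from inbred mice in which Afp and H19 stay expressed in the adult. Gpc3 and Lpl are further known targets of Zhx2 in mouse.

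The livers came from mice of a mixed C57/B6 and 129 strain at postnatal day 90. The KO group had the genotype Arid1a Fl/Fl; Alb-cre, and the WT group Arid1a Fl/Fl without Cre, so both groups carried the floxed allele. Alb-cre is driven by the albumin promoter and acts in hepatocytes. Liver cells in whose lineage it was never active keep Arid1a, whose product lets SWI/SNF complexes move nucleosomes. Which cell types lost Arid1a was not tested. The table holds 3 KO and 3 WT libraries taken 40 h after partial hepatectomy, an operation that removes most of the liver and makes the remaining hepatocytes divide. The labels also list 2 KO and 2 WT livers from before hepatectomy, which were not analysed here, so whether a gene responded to the operation could not be asked. The labels do not say that each library came from its own mouse, and p-values therefore measure the spread between libraries, which may be technical.

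Levels are FPKM, read densities scaled to transcript length and to the mapped total of each library, as the authors deposited them, and the table writes 0 as 0.001. Summed FPKM lay between 430725 and 495209 in KO libraries and between 409142 and 480544 in WT libraries. Taking WT replicate 1 as 1, relative depth was lowest in KO replicate 3 (0.844) and highest in WT replicate 2 (1.21), and the absolute depth is unknown, which limits the precision of values well under 1 FPKM. The 8 hepatocyte markers, Alb and Ttr among them, summed to between 37980 and 47174 FPKM in KO libraries and between 40385 and 46750 FPKM in WT libraries. Arid1a (chr4:133679008-133753611, mm10) was 4.41, 5.57 and 6.15 FPKM in KO replicates 1, 2 and 3, against 8.68, 8.45 and 8.49 FPKM in WT replicates 1, 2 and 3. Every KO library lay below every WT library, but the log2 difference of -0.59 (SE 0.15) had an adjusted p of 0.207 in limma. The median log2 difference of all 10956 tested genes was 0.15. Median-of-ratios rescaling brought it to 0.01.

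The promoters of 3 members are shown as examples of how differently these fetal genes begin. Afp, Gpc3 and Akr1b8 each have a single window in the RefSeq table (build GRCm38.p6), and each stood above WT in every KO library as deposited. Each is the 250 bases before the annotated start, on the strand of the gene, from chr5:90490464-90490713 (Afp, plus strand), chrX:52613975-52614224 (Gpc3, minus strand) and chr6:34353896-34354145 (Akr1b8, plus strand). Capitals mark matches, on either strand, to 5 motifs: TATAAA, the core of many gene starts; CCAAT, bound by NF-Y; GGGCGG, the GC box; TGANTCA, bound by AP-1; and the NF1 palindrome. No match to the AP-1 or NF1 letters was in these 3 windows, and no match overlapped another.
Afp: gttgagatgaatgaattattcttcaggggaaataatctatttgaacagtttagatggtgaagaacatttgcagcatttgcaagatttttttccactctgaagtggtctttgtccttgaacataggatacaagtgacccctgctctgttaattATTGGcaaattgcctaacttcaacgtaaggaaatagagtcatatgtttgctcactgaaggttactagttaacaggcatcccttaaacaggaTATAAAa
Gpc3: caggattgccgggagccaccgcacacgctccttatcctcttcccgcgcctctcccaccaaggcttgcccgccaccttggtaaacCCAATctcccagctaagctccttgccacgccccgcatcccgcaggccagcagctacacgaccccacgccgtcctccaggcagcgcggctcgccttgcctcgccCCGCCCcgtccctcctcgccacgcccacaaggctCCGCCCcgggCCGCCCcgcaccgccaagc
Akr1b8: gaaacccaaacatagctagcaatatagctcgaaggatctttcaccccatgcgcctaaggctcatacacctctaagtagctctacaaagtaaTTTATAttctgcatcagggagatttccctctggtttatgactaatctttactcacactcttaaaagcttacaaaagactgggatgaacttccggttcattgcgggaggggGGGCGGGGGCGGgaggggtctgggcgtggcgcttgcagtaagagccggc

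The Afp window held a reverse CCAAT box at -98 to -94 and TATAAA at -7 to -2, counted from the annotated start. Of 32851 such windows in the RefSeq table, 12.4% held TATAAA, 33.8% CCAAT, 6.75% the AP-1 motif and 0.0365% the NF1 motif on either strand. The Gpc3 window was of another make, with 25 CpG dinucleotides against a median of 6 over all windows, 3 GC boxes and no TATAAA. The Akr1b8 window held 9 CpG dinucleotides, 2 adjoining GC boxes and a reverse TATAAA at -159 to -154. These positions are counted from the window's own annotated start, which lies just upstream of the locus start at chr6:34354164 given below. GC boxes were found in 32.7% of all windows. Matches are a description of these letters and not of factor binding. The table also held windows for Igf2, at several annotated starts, and for Dlk1 and Zbtb20, which are not shown, and was matched for 6 of the 10 members in all.

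The comparison of KO with WT asks how these genes differ between regenerating livers with and without Alb-cre, both carrying the floxed Arid1a allele. None of the 10 members passed an adjusted p of 0.05 in limma, where 0.119% of tested genes were called, 0.0183% higher and 0.1% lower in KO. With the replicate number as a block the members called were also 0, against 0.429% of tested genes. Of the 8 members that met the filter of 1 FPKM, 4 had an unadjusted p under 0.05, Lpl, Afp, Akr1b8 and H19, each higher in KO, against 11.2% of tested genes higher and 3.99% lower. For 5 of all 10 members, Afp, Igf2 (below the filter), Gpc3, Lpl and Akr1b8, all 3 KO libraries lay above all 3 WT libraries, and for 0 members they lay below. Among all tested genes, 16.7% lay entirely above WT in KO and 5.44% entirely below, 22.1% in all. After median-of-ratios rescaling 4 members lay entirely above WT in KO, without Gpc3, against 7.87% of tested genes. Because the members were chosen with earlier results of these data known, these counts describe them and are not independent support. The other 5 members overlapped between the groups: H19, Cd24a, Zhx2 and Zbtb20, and Dlk1, which was listed at 0 everywhere. A mean of at least 1 FPKM over the 6 libraries was required for testing, and 8 members met it. H19, Gpc3 and Cd24a met it through their KO values, since each averaged under 1 FPKM in WT.

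**Figure D1:**
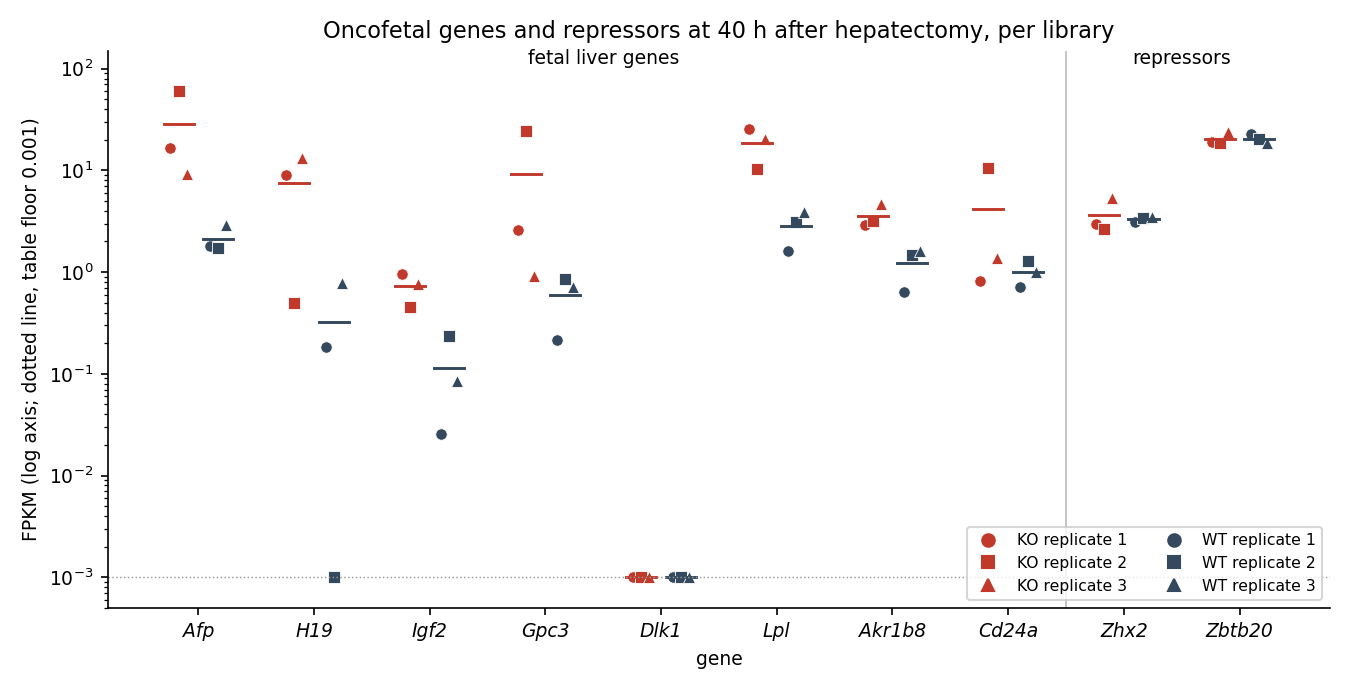
FPKM of the 10 members in each library on a log axis, KO (red) left of WT (blue-grey), with marker shape giving the replicate, short lines the group means and the dotted line the floor of 0.001. The KO points of Afp, Igf2, Gpc3, Lpl and Akr1b8 lie above all WT points, while Zhx2 and Zbtb20 overlap and Dlk1 lies on the floor.

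Afp (chr5:90490714-90508907) encodes alpha-fetoprotein, the fetal counterpart of serum albumin and a serum marker of hepatocellular carcinoma. It was 16.4, 59.9 and 9.19 FPKM in KO replicates 1, 2 and 3, against 1.79, 1.73 and 2.88 FPKM in WT replicates 1, 2 and 3. The lowest KO library stood well above the highest WT library, and KO replicate 2 stood far above the other KO libraries. The mean was 28.5 ± 27.4 FPKM in KO and 2.13 ± 0.652 FPKM in WT (SD, n = 3 each), a ratio of 13.4. Without KO replicate 2 the ratio was 6.01. The log2 difference was 2.84 (SE 0.61, 95% confidence interval 1.39 to 4.29), or 2.69 relative to the median of all genes, with an adjusted p of 0.173 in limma. The exact two-sided permutation p was 0.1, which 3 libraries against 3 cannot go below.

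The other 3 genes of the albumin family had groups that overlapped. Alb was 29106, 16226 and 20933 FPKM in KO replicates 1, 2 and 3, against 22616, 29437 and 25141 FPKM in WT. There were 1770, 271 and 2278 Alb FPKM per Afp FPKM in KO libraries, against 12660, 17062 and 8718 in WT libraries, so the proportion of Afp was higher in every KO library. Gc, the vitamin D binding protein gene, had a log2 difference of -0.14 (SE 0.27), and Afm, the afamin gene beside Afp, one of 0.14 (SE 0.26). Their adjusted p in limma was 0.816 and 0.808. Likeness was taken as the root mean square difference of centred log2 values over the 6 libraries, among tested genes with a plain symbol. Of these, the genes most like Afp were Pls1 (0.473), Tceal5 (0.509) and Cd63 (0.619). Pls1, a microvillar actin-bundling protein gene, was 11.9, 19.4 and 3.77 FPKM in KO and 1.24, 0.803 and 2.23 FPKM in WT.

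H19 (chr7:142575532-142578146) is an imprinted long non-coding RNA expressed from the maternal allele, and Igf2 (chr7:142650768-142661035) is its reciprocally imprinted neighbour, the fetal growth factor gene expressed from the paternal allele. H19 was 8.97, 0.499 and 13.2 FPKM in KO replicates 1, 2 and 3. In WT it was 0.183 and 0.775 FPKM in replicates 1 and 3 and listed at 0 in replicate 2. KO replicates 1 and 3 were high, while KO replicate 2 lay within the WT range. The log2 difference was 2.22 (SE 0.81), with an adjusted p of 0.301 in limma and an exact permutation p of 0.2. Without KO replicate 2 the log2 difference was 3.21 and the adjusted p in limma 0.0171. That library was the lowest KO library for H19, so leaving it out had to raise the difference. With any other single library left out, the adjusted p in limma lay between 0.337 and 0.587. In the fit without KO replicate 2, 1.56% of all tested genes were called higher, against 0.0183% with all libraries.

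Igf2 was 0.960, 0.449 and 0.760 FPKM in KO replicates 1, 2 and 3, against 0.0253, 0.233 and 0.0840 FPKM in WT replicates 1, 2 and 3. The groups did not overlap, but all 6 values were under 1 FPKM, the gene was below the filter, and its locus overlaps the antisense gene Igf2as. In limma without a filter its log2 difference was 0.62 (SE 0.13, unadjusted p = 0.00298, adjusted p = 0.224), a scale that understates a change at this level. The ratio of means was 6.34. In KO replicate 2 both genes of this imprinted pair were at their lowest among the KO libraries. The markers of cycling cells followed a similar order to H19: their 8 genes summed to 218, 10.3 and 332 FPKM in KO replicates 1, 2 and 3 and to 12.8, 7.01 and 38.6 FPKM in WT replicates 1, 2 and 3. All 8 were tested and 0 were called, against 0.119% of all tested genes. The groups did not overlap for 0 of the 8, against 22.1% of all tested genes. The median log2 difference of these markers was 2.18, against 0.15 over all tested genes. Their part in the H19 values was not tested.

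**Figure D2:**
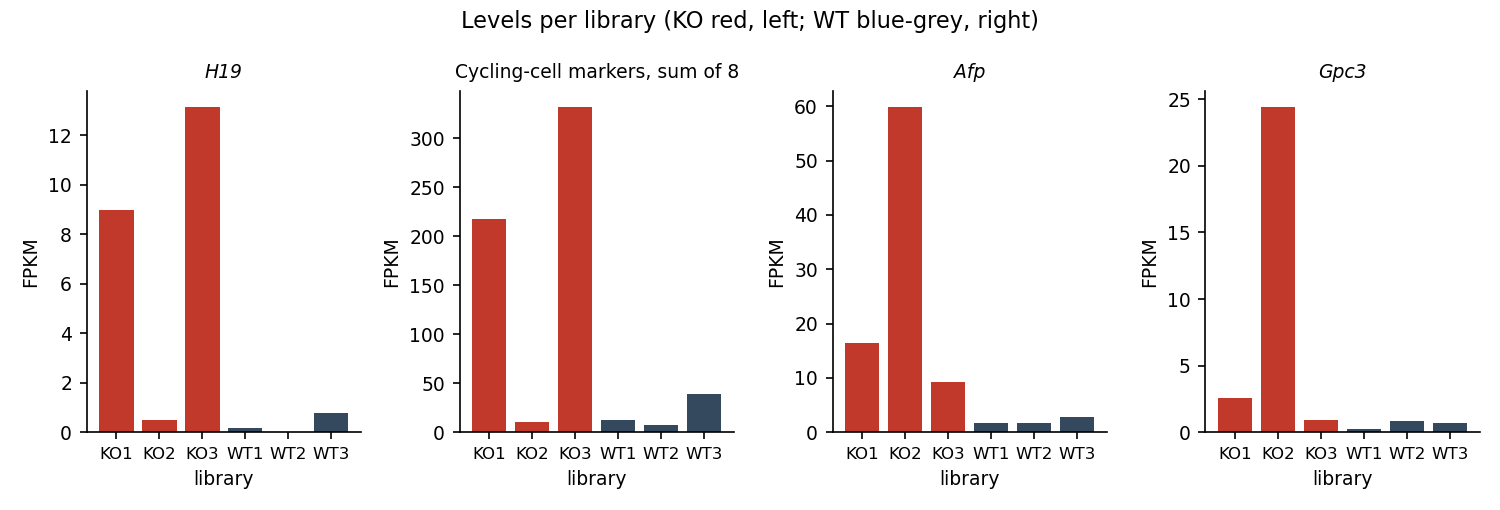
FPKM per library of H19, of 8 cycling-cell markers summed, of Afp and of Gpc3, with KO libraries left (red) and WT libraries right (blue-grey). H19 and the cycling markers were high in KO replicates 1 and 3 and low in KO replicate 2, where Afp reached 59.9 FPKM and Gpc3 24.4 FPKM.

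Gpc3 (chrX:52272427-52613974) encodes glypican-3, a heparan sulfate proteoglycan of the fetal liver surface that is used as a tissue marker of hepatocellular carcinoma. It was 2.57, 24.4 and 0.925 FPKM in KO replicates 1, 2 and 3, against 0.214, 0.858 and 0.711 FPKM in WT replicates 1, 2 and 3. KO replicate 2 was far above all other libraries, and KO replicate 3 lay only just above the highest WT library. After median-of-ratios rescaling that order turned, with 0.885 in KO replicate 3 and 0.910 in WT replicate 2. The mean was 9.30 ± 13.1 FPKM in KO and 0.594 ± 0.337 FPKM in WT (SD, n = 3 each), and the log2 difference was 1.83 (SE 0.88, adjusted p = 0.368 in limma). The ratio of means was 15.7 with all libraries and 2.94 without KO replicate 2. The locus overlaps 2 others of the table, A630012P03Rik and Mir717, so its reads are not certain to be all its own.

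Cd24a (chr10:43579169-43584265) encodes a small membrane-anchored glycoprotein found on liver progenitor cells, biliary cells and immature blood cells. It was 0.810, 10.5 and 1.38 FPKM in KO replicates 1, 2 and 3, against 0.714, 1.28 and 1.001 FPKM in WT replicates 1, 2 and 3. KO replicate 2 alone was high, and the other 5 libraries were close together. Without KO replicate 2 the ratio of means was 1.10, against 4.22 with it. The log2 difference was 0.89 (SE 0.66, adjusted p = 0.529 in limma).

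Cell types that could carry Cd24a or Gpc3 were followed by their own markers. The 8 cholangiocyte and ductular markers summed to 29.0, 23.7 and 35.8 FPKM in KO replicates 1, 2 and 3, against 16.6, 26.3 and 26.4 FPKM in WT, so KO replicate 2 was the lowest of the KO libraries. Among them Epcam was 0.132, 0.0463 and 0.800 FPKM in KO and 0.143, 0.0397 and 0.158 FPKM in WT, and Krt19 was 0.907, 0.588 and 1.90 FPKM in KO and 1.82, 1.32 and 0.627 FPKM in WT. The 4 B cell markers found in the table summed to at most 0.309 FPKM in KO libraries and at most 0.415 FPKM in WT libraries. The erythroid markers summed to 24.2, 34.5 and 103 FPKM in KO and to 48.7, 69.0 and 67.9 FPKM in WT. Onecut1, the gene of a hepatoblast and biliary transcription factor, was picked out after seeing its values, which were 11.2, 59.9 and 16.9 FPKM in KO, against 16.3, 10.3 and 15.4 FPKM in WT, again with KO replicate 2 above all others. The part of these cell types in the Cd24a and Gpc3 values was not tested. In bulk tissue, a different number of cells of one type and a different amount of RNA in each such cell cannot be told apart.

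Lpl (chr8:68880555-68906932) encodes lipoprotein lipase, which frees fatty acids from circulating triglyceride and is expressed in fetal but hardly in adult hepatocytes. It was 25.3, 10.3 and 20.2 FPKM in KO replicates 1, 2 and 3, against 1.61, 3.10 and 3.86 FPKM in WT replicates 1, 2 and 3. All KO libraries stood clear of the WT libraries, with KO replicate 2 the lowest of the 3. The mean was 18.6 ± 7.62 FPKM in KO and 2.85 ± 1.14 FPKM in WT (SD, n = 3 each), a ratio of 6.51. Its log2 difference of 2.31 (SE 0.37, 95% confidence interval 1.44 to 3.18) had the smallest adjusted p of the members, 0.123 in limma, and ranked 39 by p among all tested genes. Without KO replicate 2 the log2 difference was 2.66 and the adjusted p in limma 0.0206. The same omission gave Afp a log2 difference of 2.11 and an adjusted p of 0.0318 in limma, so that Afp, H19 and Lpl were the 3 members called without that library. In that fit 1.56% of all tested genes were called higher and 0.365% lower. With any other single library left out, the members called were 0.

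Lpl is abundant in fat and muscle. Of 6 adipocyte markers, Adipoq, Plin1, Lep and Retn were listed at 0 in every library and Cfd in all but WT replicate 1 (0.246 FPKM). Fabp4, which macrophages and endothelium also express, was 4.49, 9.45 and 8.74 FPKM in KO and 4.26, 2.53 and 4.53 FPKM in WT. Of 6 muscle markers, Ckm, Myl1, Mb and Tnnt3 were listed at 0 in every library, Myh1 reached 0.0252 FPKM in 1 WT library, and Acta1 lay between 2.20 and 3.20 FPKM in KO and between 1.70 and 2.53 FPKM in WT. The Kupffer cell markers summed to 177, 132 and 105 FPKM in KO and to 115, 138 and 98.8 FPKM in WT, so these sums overlapped. Of the 8, 1 lay entirely above WT in KO and 0 entirely below, against 16.7% and 5.44% of all tested genes. That gene, Marco, was 16.9, 27.6 and 11.8 FPKM in KO, against 9.84, 8.99 and 5.11 FPKM in WT (adjusted p = 0.264 in limma). The part of these cell types in the Lpl values was not tested.

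Of 13 tested genes listed as partners or relatives of Lpl, 0 were called, against 0.119% of all tested genes. Entirely above WT in KO was 1 and entirely below were 2, against 16.7% and 5.44% of all tested genes. The median log2 difference of the 13 was -0.03, against 0.15 over all tested genes. By smallest p they were led by Pparg, Gpihbp1, Lipg and Apoc2. Pparg, the lipid-regulating nuclear receptor gene and a known activator of Lpl in fat, was 1.78, 0.714 and 0.449 FPKM in KO, against 4.87, 3.57 and 5.81 FPKM in WT. It thus lay below WT in every KO library (log2 difference -1.58, SE 0.28, adjusted p = 0.133 in limma), opposite in sign to Lpl. Gpihbp1, the endothelial protein that anchors the lipase in capillaries, was 6.75, 14.9 and 9.13 FPKM in KO, against 4.03, 4.98 and 4.08 FPKM in WT. Lipg, the gene of the related endothelial lipase, was 0.182, 0.216 and 0.503 FPKM in KO, against 5.80, 1.22 and 1.47 FPKM in WT. Apoc2, the gene of the lipase's cofactor, was 532, 1797 and 1022 FPKM in KO, against 539, 393 and 399 FPKM in WT, and its groups overlapped. The tested genes with a plain symbol most like Lpl were Gsta4 (root mean square difference 0.323), Cdhr2 (0.327) and Gstm3 (0.375). Gsta4 and Gstm3 encode glutathione S-transferases and Cdhr2 a brush border cadherin.

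Akr1b8 (chr6:34354164-34368454) encodes an aldo-keto reductase related to human AKR1B10, a marker of hepatocellular carcinoma. It was 2.89, 3.21 and 4.63 FPKM in KO replicates 1, 2 and 3, against 0.644, 1.48 and 1.60 FPKM in WT replicates 1, 2 and 3. The groups did not overlap, and the KO libraries were closer together than for any other fetal member whose groups did not overlap, relative to their mean. The log2 difference was 1.04 (SE 0.24, 95% confidence interval 0.46 to 1.62), or 0.89 relative to the median of all genes, with an adjusted p of 0.185 in limma. The neighbouring paralog Akr1b7 was 21.2, 1.24 and 5.18 FPKM in KO, against 0.254, 2.33 and 0.703 FPKM in WT, with overlap. Akr1b10 lay between 0.574 and 0.840 FPKM in KO and between 0.545 and 0.903 FPKM in WT. Akr1b3 was listed at 0 in 4 of 6 libraries, 3.14 FPKM in KO replicate 3 and 1.98 FPKM in WT replicate 1, and the sharing of reads among such near copies is uncertain. The tested genes with a plain symbol most like Akr1b8 were Sebox (root mean square difference 0.0988), Nipal1 (0.135) and Bax (0.137).

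Dlk1 (chr12:109452823-109463336), the imprinted delta-like ligand gene of hepatoblasts, was listed at 0 in all 6 libraries. Its non-coding neighbour Meg3, included for its place after its values were known, was 0.147, 0.0990 and 0.544 FPKM in KO, against 0.0754, 0.0431 and 0.0690 FPKM in WT. Its paralog Dlk2 lay between 0.184 and 0.320 FPKM in KO and between 0.133 and 0.331 FPKM in WT. At these levels no difference in Dlk1 was detectable, and no limit can be set because absolute depth is unknown.

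**Figure D3:**
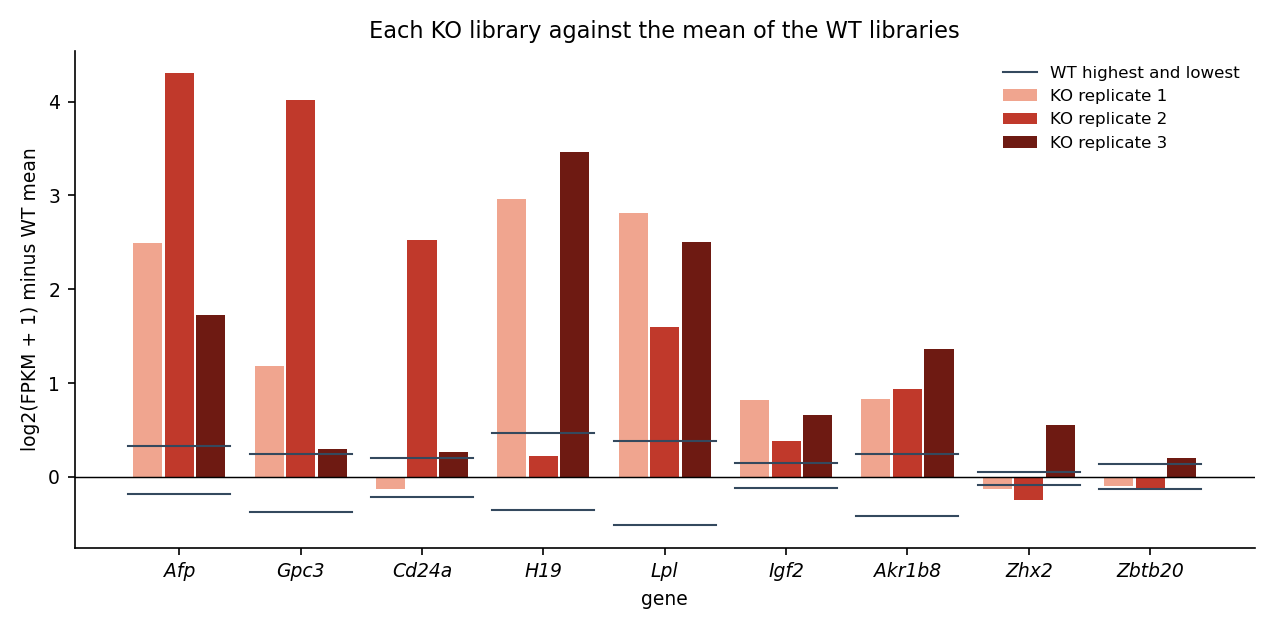
Difference of log2(FPKM + 1) between each KO library and the mean of the WT libraries for 9 members (Dlk1, listed at 0, is left out), with blue-grey lines at the highest and lowest WT library. KO replicate 2 has the tallest bars for Afp, Gpc3 and Cd24a and the shortest among KO libraries for H19, Lpl and Igf2.

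The 3 KO libraries thus carried different mixtures of the fetal transcripts. KO replicate 2 was the highest KO library for Afp, Gpc3 and Cd24a and the lowest for H19, Igf2 and Lpl. Summed over the 8 fetal members, the level was 57.9, 109 and 50.2 FPKM in KO replicates 1, 2 and 3, against 5.18, 8.67 and 10.9 FPKM in WT replicates 1, 2 and 3. Without Afp the sum was 41.5, 49.3 and 41.0 FPKM in KO, against 3.39, 6.95 and 8.03 FPKM in WT. This sum without Afp differed less between the KO libraries, as a ratio of highest to lowest, than any detected fetal member did. With Afp included, the sum differed more between them than Akr1b8 or Igf2 did. A sum evens out members that peak in different libraries, so its evenness is not a result. These sums are a description with no test.

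Both repressors, which act on fetal genes in the hepatocyte nucleus, had groups that overlapped. Zhx2 (chr15:57694667-57839832) was 2.96, 2.66 and 5.34 FPKM in KO replicates 1, 2 and 3, against 3.10, 3.43 and 3.48 FPKM in WT replicates 1, 2 and 3. KO replicate 3 was the highest of all and KO replicates 1 and 2 the lowest, so the groups overlapped. The log2 difference was 0.06 (SE 0.23, 95% confidence interval -0.48 to 0.60, adjusted p = 0.916 in limma), and its sign turned after median-of-ratios rescaling (-0.06) and quantile normalization (-0.09). Zbtb20 (chr16:43247284-43619123) was 19.03, 18.4 and 23.7 FPKM in KO, against 22.6, 20.3 and 18.5 FPKM in WT. Its means of 20.4 ± 2.91 and 20.5 ± 2.04 FPKM in KO and WT (SD, n = 3 each) differed by less than the spread between replicates. The log2 difference was -0.01 (SE 0.16, 95% confidence interval -0.40 to 0.38, adjusted p = 0.977 in limma), and its locus overlaps Gm15713.

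Of the relatives of Zhx2, Zhx1 was 7.60, 10.03 and 5.28 FPKM in KO and 8.26, 10.1 and 10.5 FPKM in WT. Zhx3 was at most 13.96 FPKM in KO and at least 15.6 FPKM in WT, so every KO library was lower (log2 difference -0.24, SE 0.13, adjusted p = 0.399 in limma). The tested genes with a plain symbol most like Zhx2 were Btnl9, Ccdc117 and Vmn1r58, each within a root mean square difference of 0.0911. Of 22 regulators of the Afp locus, 0 were called, against 0.119% of all tested genes. Their median log2 difference of 0.02 was below the 0.15 of all genes. Trp53, whose product p53 represses Afp, was 12.8, 12.3 and 12.8 FPKM in KO, against 7.39, 6.37 and 10.4 FPKM in WT (adjusted p = 0.248 in limma). Prox1, a hepatocyte homeobox gene, was 25.9, 31.6 and 21.4 FPKM in KO, against 37.5, 35.4 and 39.7 FPKM in WT. The insulator gene Ctcf and the pioneer factor gene Foxa1 had log2 differences of 0.44 and 0.54, with KO libraries all above WT. Their adjusted p in limma was 0.302 and 0.309. Of the 22 regulators, 3 lay entirely above WT in KO and 2 entirely below, against 16.7% and 5.44% of all tested genes.

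**Figure D4:**
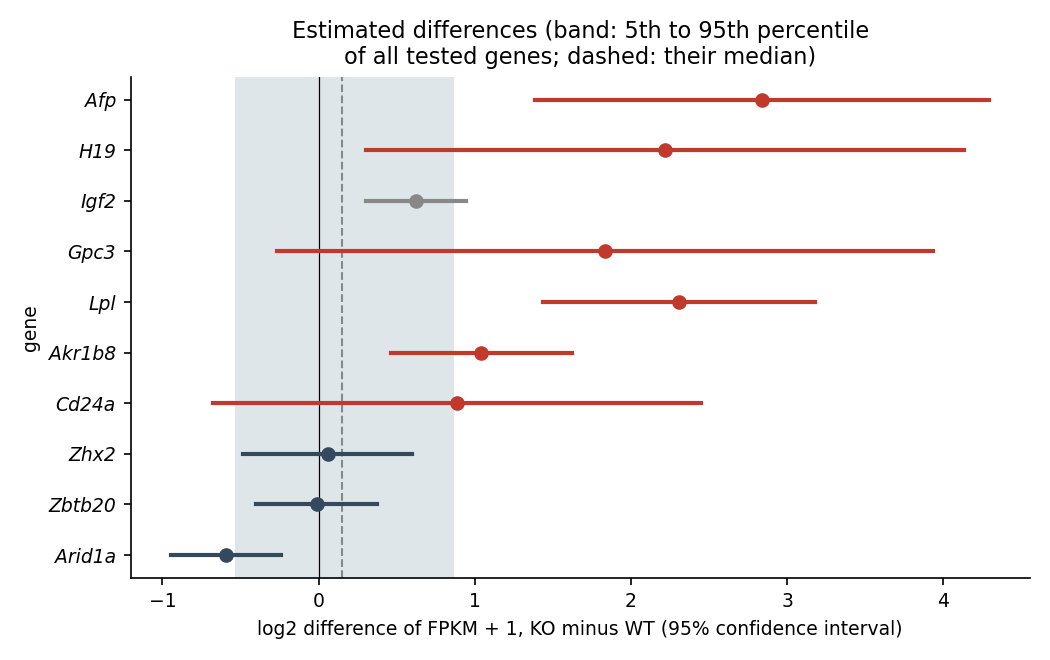
Log2 difference, KO minus WT, with its 95% confidence interval for 9 members and Arid1a (fetal members red, repressors and Arid1a blue-grey, Igf2 grey from the fit without a filter). The band spans the 5th to 95th percentile of all tested genes (-0.53 to 0.86) and the dashed line is their median of 0.15. The estimates of Zhx2, Zbtb20 and Igf2 lie inside the band. Those of Afp, H19, Lpl, Gpc3, Akr1b8 and Cd24a lie to its right, and that of Arid1a to its left. Only the intervals of Afp and Lpl lie wholly outside the band.

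Further genes of the fetal programme were mostly too low to test. Of 20 further fetal and oncofetal genes, 8 were tested and 0 called, against 0.119% of all tested genes. Bex1 and Tff3 averaged under 1 FPKM in WT and met the filter through their KO values. The median log2 difference of the 8 was 0.65, which is 0.50 relative to all genes, against 0.0913 without the filter. Bex1, Scd2 and Prom1 lay entirely above WT in KO, as did 16.7% of all tested genes. Scd2, a stearoyl-CoA desaturase gene of fetal tissues, was 4.01, 1.74 and 6.66 FPKM in KO, against 1.63, 1.54 and 1.04 FPKM in WT. Prom1, a progenitor surface marker, was 8.89, 1.94 and 4.23 FPKM in KO, against 1.48, 1.64 and 1.51 FPKM in WT. Both were lowest in KO replicate 2 among the KO libraries, as were Lpl and H19. Bex1 had a log2 difference of 1.50 (SE 0.22, adjusted p = 0.0957 in limma). Tff3, a secreted trefoil peptide gene, was 5.79 and 2.71 FPKM in KO replicates 1 and 2 and listed at 0 in KO replicate 3, against 0.349, 0.291 and 0.289 FPKM in WT. Lin28a, Lin28b and Sall4, classic oncofetal regulators, were listed at 0 in all 6 libraries.

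Of 20 growth-related imprinted genes outside the H19 and Igf2 pair, 9 were tested and 0 called, against 0.119% of all tested genes. The median log2 difference of the 9 was 0.11, against 0.15 over all tested genes. Entirely above WT in KO were 3 of the 9 and entirely below 1, against 16.7% and 5.44% of all tested genes. Slc22a18, a transporter gene of the neighbouring imprinted cluster on chromosome 7, was 36.2, 32.7 and 38.3 FPKM in KO, against 22.9, 13.4 and 21.9 FPKM in WT (log2 difference 0.88, SE 0.23, adjusted p = 0.208 in limma). Igf2r, which clears IGF2 from the cell surface, was 13.5, 24.6 and 12.5 FPKM in KO, against 10.3, 10.3 and 11.2 FPKM in WT. Gnas, a G protein subunit gene, had a log2 difference of 0.31 (SE 0.18), and Impact, a regulator of translation, one of -0.60 (SE 0.20), each with groups that did not overlap (adjusted p = 0.441 and 0.281 in limma). Of the other glypican genes, Gpc4 lay between 27.1 and 31.5 FPKM in KO and between 31.1 and 36.5 FPKM in WT, Gpc1, Gpc2 and Gpc6 averaged under 1 FPKM over the 6 libraries, and Gpc5 was listed at 0. Igf1, the postnatal IGF gene, was 110, 89.0 and 105 FPKM in KO, against 112, 107 and 126 FPKM in WT.

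**Figure D5:**
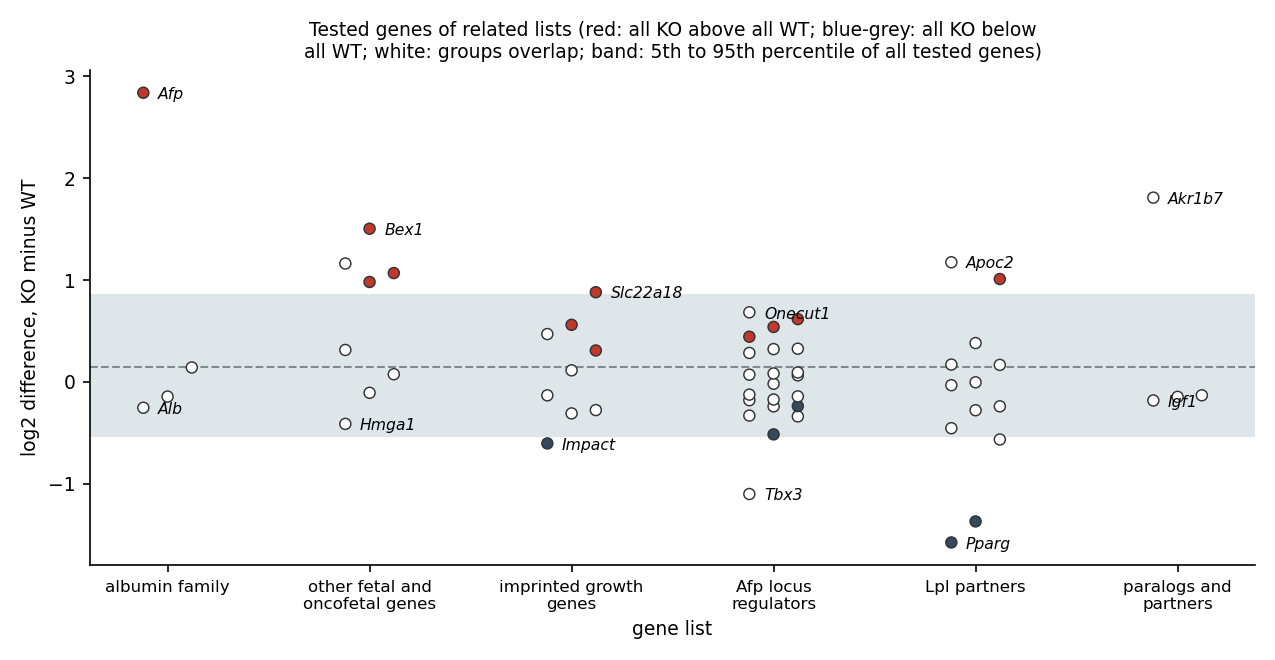
Log2 differences, KO minus WT, of the tested genes of 6 related lists, with each list's highest and lowest gene named. Red points have every KO library above every WT library, blue-grey points the reverse, and white points overlap; the band spans the 5th to 95th percentile of all tested genes, and Afp stands alone in the albumin family.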

How the data were processed

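Total RNA from frozen liver (Trizol, miRNeasy) went into Illumina or Nugen libraries, per the labels' protocols. The submitters' processing notes name TopHat, edgeR, mm9 and mm10 without roles; no source used here states strandedness. The authors deposited 1 FPKM value per locus and library, per the file headers, in a table described as filtered by an unstated criterion. Of loci matched by symbol to RefSeq GRCm38.p6, 99.5% overlapped on the same chromosome, and starts in the file count from 0 and are printed from 1.

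The 312 loci listed as LOWDATA were left out, and 0.001 was set to 0. Values were analysed as log2(FPKM + 1) for 10956 genes with a mean of at least 1 FPKM, in limma 3.58.1 (R 4.3.3, eBayes with trend), genotype as the only term, two-sided, Benjamini-Hochberg adjustment over all tested genes. Single values had an exact permutation test over 20 assignments. The fit was tested on simulated data. The members and lists were chosen with earlier results of these data known. Named genes are the members, Arid1a, up to 4 genes of smallest p from each list, the paralogs and the albumin family. Also named are the 3 genes most like each of Afp, Lpl, Akr1b8 and Zhx2. Those were ranked among tested genes with a plain symbol, which leaves out predicted, Rik, microRNA and accession-like names, among others. Tested alternatives covered pseudocount, filter, scaling, trend, a replicate block and each library left out. One item is not reported here.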

Additional observations from a re-analysis of the deposited data

How the results depend on the processing

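Without KO replicate 2, Afp (2.11), H19 (3.21) and Lpl (2.66) passed the threshold in limma, and with 1 library left out their log2 differences ranged from 2.11 to 3.399, 1.59 to 3.21 and 2.05 to 2.66. The number of the 10 members called ranged from 0 to 3 with 1 library left out. It was 0 under each other alternative. Over all genes, the number called higher ranged from 0 to 171 and the number called lower from 0 to 40 with 1 library left out. Genes called higher numbered 5 with a pseudocount of 0.1, 5 with a mean of at least 0.1 FPKM, and 0 without a filter, after median-of-ratios rescaling and after quantile normalization; genes called lower numbered 6 without a filter. The sign of Zhx2 turned after median-of-ratios rescaling (-0.0626), after quantile normalization (-0.0910) and without KO replicate 3 (-0.19), with a highest value of 0.21 without KO replicate 2. That of Zbtb20 turned without KO replicate 1 (0.03), KO replicate 2 (0.05) or WT replicate 1 (0.0585), with a lowest value of -0.12 among the fits that leave out 1 library; it was -0.16 after median-of-ratios rescaling and -0.17 after quantile normalization. The cause of these changes was not tested. With 1 library left out, the number of members entirely above WT ranged from 5 to 6, an alternative chosen after seeing the data. With fewer libraries the groups separate more easily for any gene. The matching share of all tested genes was not computed, so this range does not show stability. The median relative to all genes ranged from 0.28 to 0.61 for the other fetal genes, from -0.28 to -0.13 for the Afp regulators and from -0.39 to -0.18 for the Lpl partners. Without a filter it was 0.0913 for the other fetal genes and -0.13 for the paralogs and partners.

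With the replicate number as a replicate block, 10 genes were called higher and 37 lower, 0 of them members. Correlations of same-numbered libraries' deviations from their group means were -0.0840, 0.155 and 0.164, so the numbers were not taken to pair the samples, and KO replicate 1 correlated best with WT replicate 3 (0.175). Absolute depth is unknown, and values near 0 rest on few reads.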
